A study of Arabidopsis thaliana with 3 samples.

Results

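The regions described here are the binding regions of AIPP3 that both replicates of a ChIP-seq experiment recovered, and the genes that lie under them. A region was an AIPP3-4Myc replicate 1 peak on chromosomes 1 to 5 that overlapped a replicate 2 peak by at least 1 bp and overlapped no peak of the Col-0 library. Of the 926 nuclear peaks of replicate 1, 307 (33.2%) met this rule, 613 had no counterpart in replicate 2 or Col-0, and 6 overlapped a Col-0 peak. Replicate 2 held 430 nuclear peaks and Col-0 held 16. The members were thus chosen by the peak calls themselves, and their number, their scores and their being wide are given as a description only.

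ChIP-seq recovers the DNA that a protein contacts, directly or through its partners, with an antibody, here one against the Myc tag, from 13-day-old Arabidopsis thaliana seedlings grown on medium with sucrose under long days. For the 2 AIPP3-4Myc libraries, AIPP3 genomic DNA with its native promoter had been fused to Myc copies and introduced into the corresponding mutant. The single Col-0 library came from untagged wild-type plants of the same ecotype, so tag, transgene and line cannot be told apart in the comparison with Col-0. Nothing in the sources used here says whether the 2 AIPP3-4Myc libraries came from separate cultures or lines, and their read depth is unknown. With 2 tagged libraries and 1 untagged library no test between genotypes was made, and the values below are set beside all 27444 nuclear protein-coding genes and beside the 613 replicate 1 peaks found alone.

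AIPP3 carries a BAH domain, a fold that in several chromatin proteins reads modified histone tails, and it was studied as a reader of H3K27me3. This mark is laid down by Polycomb repressive complex 2, covers whole transcribed units in plants, and is known for keeping genes silent until development or a stress calls on them. Plant Polycomb complexes are known to be recruited through short DNA elements, among them GA repeats and telo-box motifs. H3K27me3 itself was not analysed here.

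A host gene was defined as the protein-coding gene whose body, from transcription start site (TSS) to transcription termination site (TTS), shared the most bases with a region. By this definition 304 regions had a host, each a different gene, which is 1.11% of all protein-coding genes, and 594 further genes (2.16%) hosted a replicate 1 peak found alone. The regions touched 381 protein-coding gene bodies in all, with 1 gene under 230 regions, 2 genes under 70, 3 genes under 4 and none under 3.

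The sequences below show what lay under the peaks. The first set gives the windows of regions 2 to 5 in order of the smaller of the 2 replicate scores, each around the longest GA repeat of the region outside untranslated exons, which is in capitals. Each is written 5′ to 3′ on the strand of its host in TAIR10.1, which is the minus strand for ERD7, AT1G61890 and CYP94B3 and the plus strand for BPS3. The leading region, at the AIPP3 gene itself, is left aside because the transgene carries the same DNA. The windows of ERD7, BPS3 and CYP94B3 are coding sequence, and that of AT1G61890 lies outside protein-coding genes.
ERD7, chr2:7757088-7757207: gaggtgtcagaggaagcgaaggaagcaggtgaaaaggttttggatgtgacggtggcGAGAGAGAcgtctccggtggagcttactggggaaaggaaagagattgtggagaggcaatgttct
AT1G61890, chr1:22866816-22866935: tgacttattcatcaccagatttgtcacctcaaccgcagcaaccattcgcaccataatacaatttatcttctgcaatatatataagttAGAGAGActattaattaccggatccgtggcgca
BPS3, chr4:565173-565292: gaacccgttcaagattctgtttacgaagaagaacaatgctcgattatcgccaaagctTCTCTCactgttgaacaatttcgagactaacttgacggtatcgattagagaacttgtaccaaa
CYP94B3, chr3:17976370-17976489: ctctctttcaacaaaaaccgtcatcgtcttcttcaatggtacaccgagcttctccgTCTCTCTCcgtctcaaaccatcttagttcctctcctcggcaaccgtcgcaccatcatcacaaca

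The second set gives the DNA just before the TSS of the 4 leading hosts that had a G-box within 300 bp of it, chosen after the motif counts were seen. The G-box, in capitals, is the palindrome bound by bHLH and bZIP transcription factors. All 4 genes are on the plus strand, and all 4 motifs lay inside their regions, at 134 bp before the TSS in RRTF1, 64 bp in ERF4, 92 bp in CYP78A7 and 23 bp in ERD15.
RRTF1, chr4:16451715-16451774: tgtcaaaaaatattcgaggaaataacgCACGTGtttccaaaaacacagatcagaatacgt
ERF4, chr3:5121212-5121271: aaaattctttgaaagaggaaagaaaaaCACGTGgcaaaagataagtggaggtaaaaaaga
CYP78A7, chr5:3111826-3111885: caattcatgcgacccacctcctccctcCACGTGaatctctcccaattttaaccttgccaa
ERD15, chr2:17269108-17269157: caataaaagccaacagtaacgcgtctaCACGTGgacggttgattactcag

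The regions were broad, and their median width was close to the median length of the host genes, 1911 bp. Width followed the length of the single host only loosely. Its median was 1717 bp for hosts under 1 kb, 2811 bp at 3 to 4 kb and 1910 bp over 4 kb. In replicate 1 their width ranged from 943 to 6384 bp with a median of 1885 bp, and the matching replicate 2 peaks had a median of 1623 bp. The interval common to both replicates had a median of 1571 bp, and in 174 regions (56.7%) the replicate 2 peak lay wholly inside the replicate 1 peak. Peak midpoints differed between the replicates by a median of 94 bp. Across the 307 regions the widths of the 2 replicates had a Spearman's rho of 0.776, and width and score had a rho of 0.363 in replicate 1 and 0.476 in replicate 2. These coefficients describe regions that share 2 libraries and are not tests.

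The widest regions were 6384 bp at MST1, 5929 bp at PEN3 and 4785 bp at CIPK9. PEN3, an ABC transporter of defence compounds, was covered over its full 5704 bp, with scores of 98.6 and 155 in replicates 1 and 2. At MST1 the region covered only 17.0% of the gene, whereas a transcribed pseudogene beside it, AT1G79245, lay under the region over all of its 4921 bp. The narrowest were 943 bp at TCH3, a calmodulin-like gene induced by touch, 954 bp at AT1G21940 and 1055 bp at AT1G50660. At the edge of the rule, the smallest overlaps between the replicates were 286 bp at BAM1, 638 bp at GH3.1 and 803 bp at a region of chromosome 3 without a gene. The nearest misses were replicate 1 peaks at HAM3, TRM33 and AT1G18310, whose gaps to a replicate 2 peak were 940, 1163 and 1355 bp.

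The score, which is -10 times the log10 of the MACS p-value, had a median of 98.3 in replicate 1 and 80.4 in replicate 2 over the regions. A single region stood far above the rest, at AT4G11560, the AIPP3 gene, with scores of 2120 and 1742. Its replicate 1 peak ran over chr4:7001430-7005714 and covered the TSS and the first 56.9% of the gene. Reads from the transgene and reads from binding at this locus cannot be told apart. Without it the highest smaller score was 368, at ERD7, a gene named for early response to dehydration. Every result listed in the account of the processing was computed again without this locus, and each stayed within its interval.

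**Figure D1:**
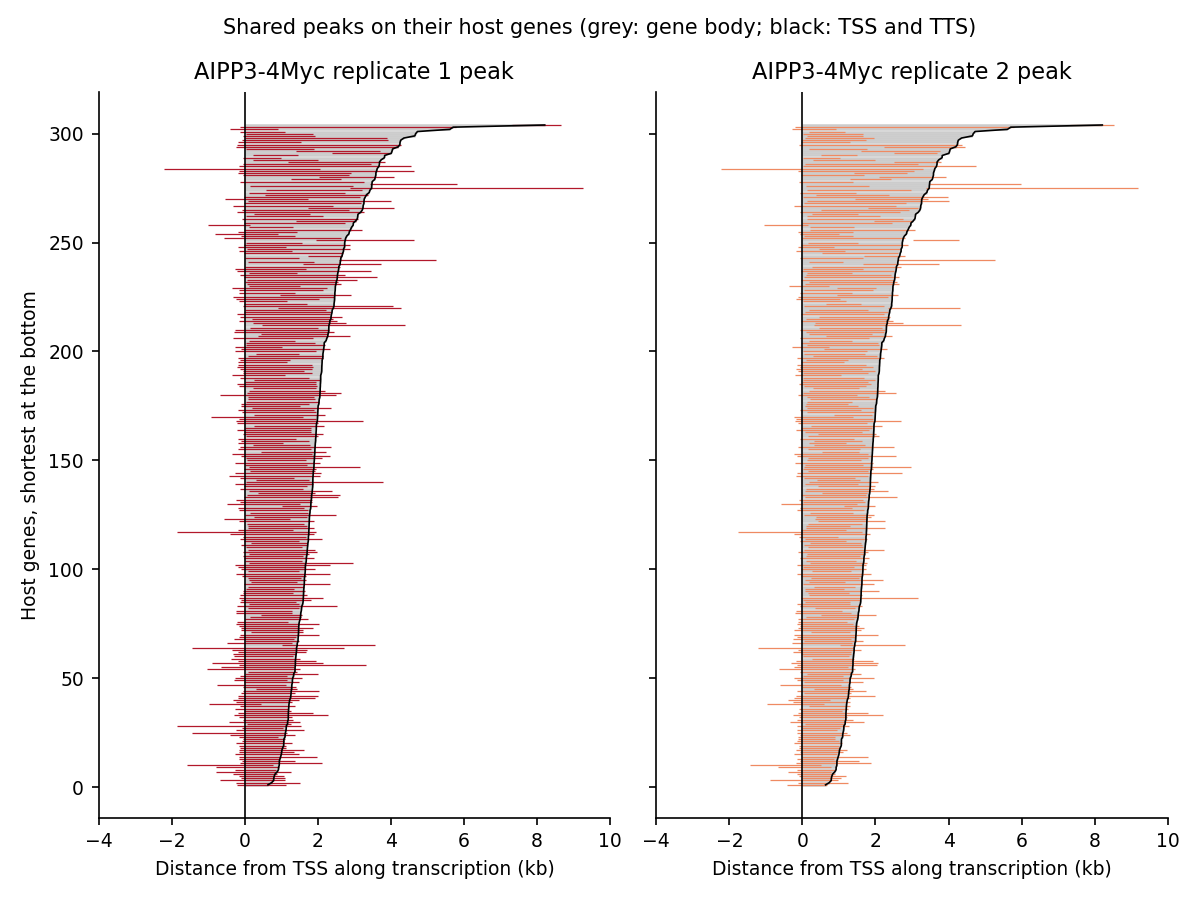
The 304 host genes are stacked from the shortest at the bottom to the longest at the top, with grey for the gene body, black for the TSS at 0 kb and for the TTS, and coloured lines for the peak of replicate 1 (left) and replicate 2 (right). Most peaks begin close to the TSS and follow the gene to near its end, and the peaks of replicate 2 are the shorter ones, with a median of 1623 bp against 1885 bp.

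Regions 11 to 30 in order of the smaller score illustrate the kind of genes bound. All 20 were protein-coding hosts with scores between 144 and 401 in replicate 1 and between 147 and 300 in replicate 2. Several belong to the early answer of plants to stress and pathogens. PHI-1, a phosphate-responsive gene, had scores of 401 and 206 in replicates 1 and 2. CAF1a, a deadenylase that shortens mRNA tails, had 323 and 200. HSPRO2, the counterpart of a sugar beet nematode resistance gene, had 183 and 300. SZF1, a salt-inducible zinc finger gene, had 201 and 208. These 4 genes were covered over at least 93.7% of their length, and PHI-1, CAF1a and HSPRO2 lack introns.

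Other hosts of these ranks take part in signalling and growth. JAZ1, a repressor of jasmonate signalling, had scores of 162 and 227, and its region reached 1259 bp past the TTS. TCH2, a touch-induced calmodulin-like gene, had 204 and 147, and AT3G10300, an EF-hand protein, had 208 and 222. CRF1, a cytokinin response factor, had 188 and 150 with a region inside the gene. RAP2.4, of the AP2/ERF family, had 205 and 269, and DPA4, a B3 factor that restrains leaf margin teeth, had 163 and 168. CYP78A7, a cytochrome P450 of organ growth, had 273 and 159. DIC2, a mitochondrial dicarboxylate carrier, had 245 and 169. NUDT4, a nudix hydrolase, had 203 and 169. The remaining hosts of these ranks were AT1G22190, AT1G33590, AT1G56660, AT2G27080, AT4G29780, AT4G32020 and AR781, with replicate 1 scores from 144 at AR781 to 235 at AT1G33590. AT2G27080 was the least covered of the 20, at 43.0% of its length.

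The hosts were poor in introns. Of the 304 hosts, 130 (42.8%, 95% Wilson interval 37.3 to 48.4) had none in the annotated model, against 20.4% of all protein-coding genes. Intervals cover counting error only. A further 34.2% had 1 or 2 introns, and 23.0% had 3 or more, against 51.3% of all genes. The median was 1 intron per host and 3 per gene overall. Read by gene, 2.32% of intronless genes hosted a shared region, 1.23% of genes with 1 intron, 1.49% of genes with 2, 1.12% of genes with 3, and 0.257% of genes with 10 or more. The hosts of replicate 1 peaks found alone had nearly the same share without introns, 42.4%.

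The lower number of introns was also found when genes of like length were compared, in each class of length but one. The median length was 1911 bp in hosts and 2078 bp over all genes, and the median coding length was 1044 bp in hosts and 1047 bp overall. Among genes of 1 to 1.5 kb, 73.8% of the 61 hosts lacked introns against 34.9% of all genes of that size. Among genes of 1.5 to 2 kb the shares were 47.9% of 96 hosts and 19.0%, and among genes of 2 to 2.5 kb 39.0% of 59 hosts and 11.5%. The class of 2.5 to 3 kb went the other way, with none of 28 hosts against 6.98% of all genes. Among longer genes the hosts were few, with 12.9% of 31 hosts against 2.87% at 3 to 4 kb and 7.14% of 14 hosts, a single gene, against 0.462% over 4 kb. The longest exon had a median of 1140 bp in hosts and 653 bp in all genes, and exons made up a median of 90.2% of the host gene against 73.9%.

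**Figure D2:**
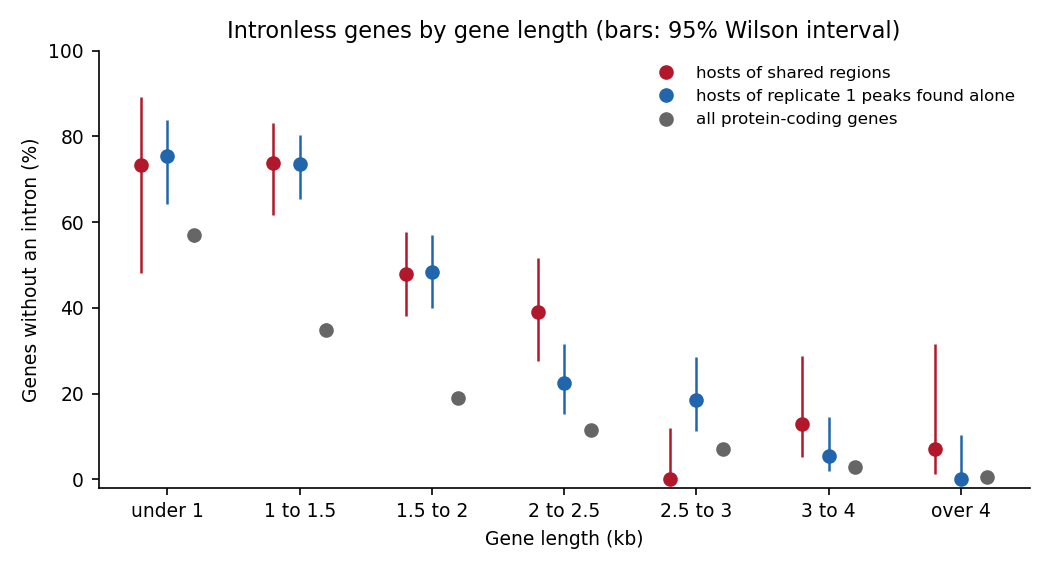
Share of genes without an intron (percent, vertical axis) by class of gene length (kb) for hosts of shared regions, hosts of replicate 1 peaks found alone and all protein-coding genes, with bars for 95% Wilson intervals. Hosts of both kinds lie above all genes from under 1 kb up to 2.5 kb, with 73.8% against 34.9% at 1 to 1.5 kb. None of the 28 shared hosts of 2.5 to 3 kb lacked introns, and the 2 classes of longer genes hold 31 and 14 shared hosts.

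Only 9 hosts (2.96%) had 10 or more introns, against 12.8% of all genes, and 6 of these were covered by under 30% of their length. The region at SEC3A, an exocyst subunit with 24 introns, covered 10.99% of the gene. AGO5, an ARGONAUTE protein with 19 introns, was covered over 16.0%, MST1 with 11 introns over 17.0%, SDH1-2 with 14 introns over 1.55%, SCAMP5 with 11 introns over 5.02% and AT5G14020 with 10 introns over 28.8%. The exceptions were CIPK9, a calcium-signalling kinase with 13 introns that was covered in full, ATR2, a P450 reductase with 16 introns covered over 92.2%, and AT1G42980 with 11 introns covered over 79.3%. The region at AT5G14020 also held all 787 bp of KNU, a C2H2 zinc finger gene, and that at AT1G42980 all 1741 bp of BZIP60. The class counts below take hosts only, so neither of these second genes is in them. The genes named here that lie outside the ranks above and the classes below were chosen after their values were seen.

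A region usually lay over most of its host. The region covered the whole gene in 102 cases, the TSS but not the TTS in 101, the TTS but not the TSS in 56, and neither in 45. The median host was covered over 93.8% of its length, and 180 hosts (59.2%) over at least 90%. The 5' edge of the region lay a median of 94 bp before the TSS and the 3' edge a median of 13.5 bp past the TTS. The midpoint was inside the host in 287 of 304 cases (94.4%), at a median of 884 bp from the TSS. These edges differed between the replicates. With replicate 2 edges the region began a median of 15.5 bp after the TSS and ended 85.5 bp before the TTS, and it covered the host TSS in 143 cases in place of 203 and the host TTS in 117 in place of 158. The 2 replicates gave the same answer at the TSS for 224 hosts and at the TTS for 243.

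Longer genes were covered less completely. All 15 hosts under 1 kb had their TSS inside the region, and 12 of them were covered in full. For 61 hosts of 1 to 1.5 kb the median 5' edge lay 173 bp before the TSS and the median 3' edge 122 bp past the TTS. For 31 hosts of 3 to 4 kb the corresponding medians were 30 bp after the TSS and 226 bp short of the TTS. Region width and host length had a Spearman's rho of 0.381 over 304 pairs.

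Along the host, coverage was highest before the middle of the gene body. With replicate 1 edges 93.4% of hosts had the point at 35.8% of gene length under the region, and with replicate 2 edges 90.5% had the point at 29.2%. Coverage fell steeply outside the gene. At 475 bp before the TSS it was 7.57%, and at 475 bp past the TTS it was 16.8%. The peaks of replicate 1 found alone had the reverse order outside the gene, with 13.9% upstream and 10.2% downstream, and they covered the host TTS in 42.5% of cases against 52.0% for the shared regions. Coverage of the TTS also went with score. It was 67.7% for ranks 1 to 100, 56.0% for ranks 101 to 200 and 33.3% for ranks 201 to 307, while the TSS was covered in 67.7%, 63.0% and 69.5%. Width fell over the same ranks, from a median of 2209 to 1866 and 1671 bp, and a wider region covers more of a gene. The part of width in this difference was not tested.

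**Figure D3:**
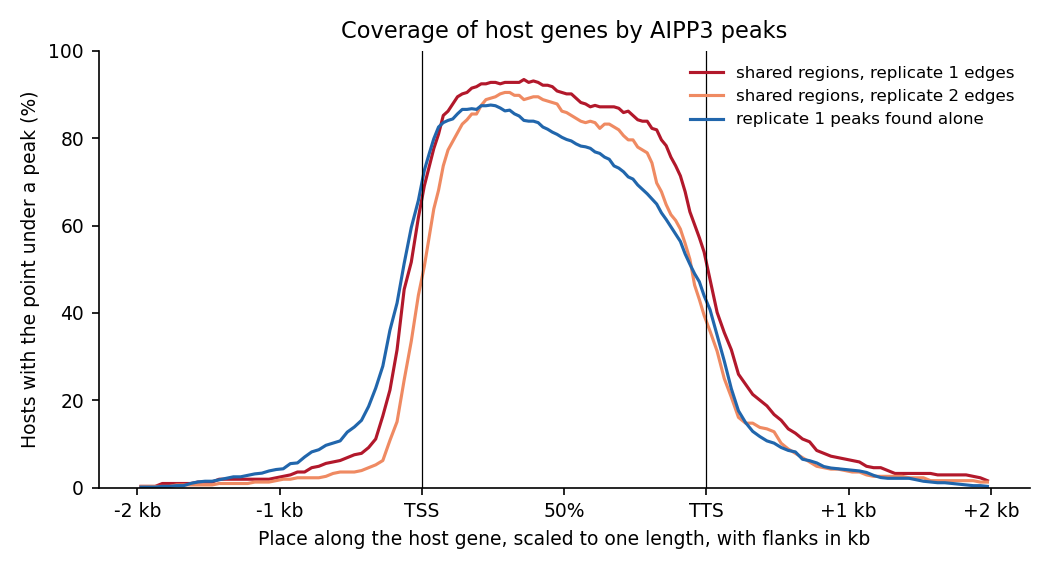
Percent of host genes with a given point under a peak (vertical axis), along gene bodies scaled to one length and 2 kb of flank on each side, for shared regions with replicate 1 or replicate 2 edges and for replicate 1 peaks found alone. Shared regions reach 93.4% with replicate 1 edges and 90.5% with replicate 2 edges inside the gene, and at 475 bp past the TTS the shared regions with replicate 1 edges stand at 16.8% against 10.2% for peaks found alone.

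In hosts with introns the midpoints were spread over exons and introns. Of 162 midpoints inside intron-bearing hosts, 119 (73.5%) were in an exon, where exons made up a mean of 77.2% of the gene. The longest exon held 53.1% of midpoints and made up a mean of 44.5% of the gene. Over all regions 52.3% of bases were coding, 20.1% untranslated exon, 12.3% intron and 15.3% outside protein-coding genes, against 28.1%, 9.31%, 16.7% and 45.9% of the nuclear genome.

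The hosts stood apart from their neighbours. The gap to the upstream protein-coding gene had a median of 2564 bp in hosts and 953 bp in all genes, and 58.6% of hosts had an upstream gap over 2 kb against 29.6%. Upstream gaps under 500 bp were found at 12.2% of hosts and 35.2% of all genes. Downstream the medians were 975 and 407 bp. The upstream gap was wide in intronless hosts (median 2916 bp against 1114 bp in all intronless genes) and in hosts with introns (2410 against 907 bp). It was wide in hosts of the transcription factor classes (4032 against 2177 bp) and in the others (2420 against 902 bp). The hosts of replicate 1 peaks found alone had a median upstream gap of 2026 bp. Since the median region began 94 bp before the TSS, most of this upstream space lay outside the peaks.

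**Figure D4:**
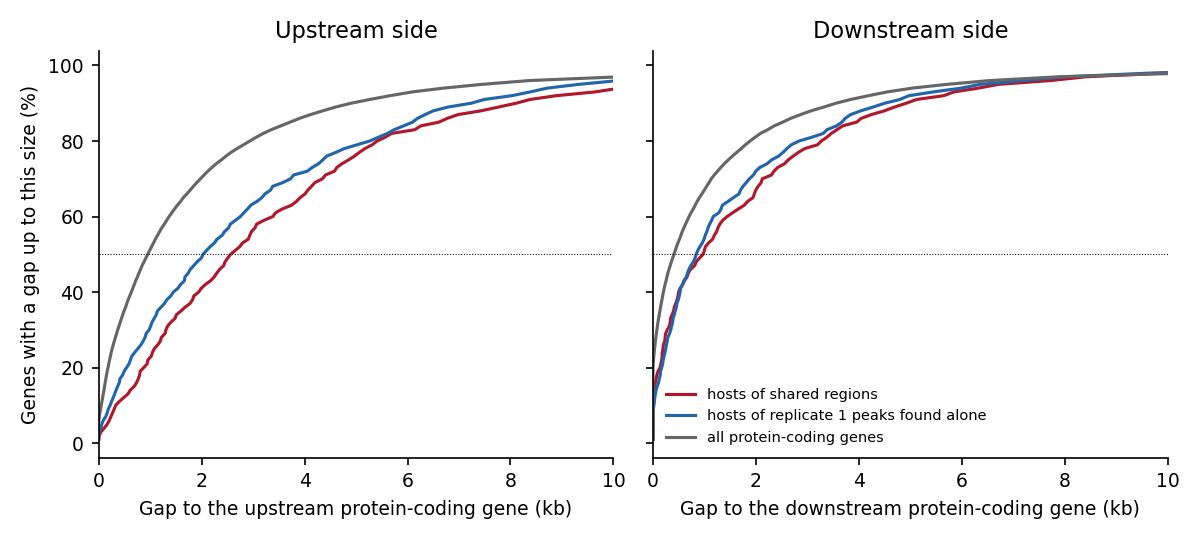
Cumulative percent of genes (vertical axis) with a gap to the upstream (left) or downstream (right) protein-coding gene of at most the length on the horizontal axis in kb, for hosts of shared regions, hosts of replicate 1 peaks found alone and all protein-coding genes. The dotted line marks the median, which on the upstream side is 2564 bp in hosts of shared regions, 2026 bp in hosts of peaks found alone and 953 bp in all genes.

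Orientation of the hosts was close to that of the genome. The plus strand carried 163 hosts (53.6%) against 50.2% of all genes. The upstream neighbour was divergent, pointing away from the host, in 49.7% of hosts (95% Wilson interval 44.1 to 55.3) and 48.1% of all genes, and the downstream neighbour was convergent in 45.7% and 48.1%. The pairs of genes inside 1 region had another arrangement. Of the 70 regions that touched 2 genes, 39 (55.7%) held a convergent pair, 23 (32.9%) a tandem pair and 8 (11.4%) a divergent pair, where adjacent gene pairs of the genome were 24.1% convergent, 51.9% tandem and 24.1% divergent. The annotated genes of 29 of these 70 pairs overlapped each other. Genes under 1 region lie close together, whereas the genome shares take adjacent pairs at any distance. Over all genes the median gap was 407 bp downstream and 953 bp upstream. No share was computed for pairs at like distance, so the part of distance in this difference was not tested. Peaks carry no strand, so a region over overlapping genes cannot be given to one of them.

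One such pair left its host undecided. The region at AT1G32630 and MYC2 lay over both genes by the same 2322 bp, with scores of 112 and 127. MYC2 is the central bHLH activator of jasmonate responses, and AT1G32630, a FAM50A-like gene, overlaps it from the other strand. It counts here under AT1G32630, the first by position. In the same way the region at WRKY33, a defence regulator, shared 1109 bp with AT2G38480, that at ATAF1 753 bp with AT1G01725, and that at DREB2A, a drought and heat regulator, 489 bp with AT5G05420. Among tandem pairs, that at JAZ1 also covered 1105 bp of AT1G19190. These pairs were chosen after their values were seen.

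Non-coding genes and pseudogenes were under 45 regions. In 5 regions with a host they took more bases than the host, and 2 further regions had no host. The region named for SDH1-2 lay over 2231 bp of GUT15, an annotated non-coding RNA gene, and over 54 bp of SDH1-2. That named for PBRP held all 2203 bp of the non-coding gene AT4G36648 and 58 bp of PBRP. The region at AT1G50660 is not one of the 5, since it held all 994 bp of AT1G50659 and 1001 bp of its host. Altogether 10 hosts were covered by under 30% of their length, and the class counts below include them. The 3 regions with no protein-coding gene lay at chr5:13987499-13988828 over the transcript AT5G05305, with scores of 94.3 and 170, at chr1:7449821-7452126 over the pseudogene AT1G21290 and its neighbour, with 105 and 61.1, and at chr3:23130250-23131349, with 56.8 and 58.0.

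Transcription factor genes made up 44 of the 304 hosts (14.5%, 95% Wilson interval 10.96 to 18.9) and 5.63% of all genes. Among the 594 hosts of replicate 1 peaks found alone, 64 were of these classes. By class the shares are read against the 1.11% of all genes that hosted a region, and against 2.16% for peaks found alone. AP2/ERF factors, which act in ethylene, cold, drought and redox responses, had 16 hosts among 182 annotated genes (8.79%). A further 17 (9.34%) hosted peaks found alone. Classes were matched by words, and the 16 include DPA4, a B3 factor that counts in both classes. RRTF1, a redox-responsive factor, had scores of 223 and 236, ERF4, a repressor of ethylene responses, 211 and 254, and RAP2.4 205 and 269. In this class 14 of 16 hosts lacked introns, as did 56.6% of the class. WRKY factors of defence had 5 of 77 (6.49%), led by WRKY18 with scores of 85.2 and 97.7, WRKY17 with 128 and 84.1, and WRKY33 with 70.5 and 104. All 5 had introns, and 6 further WRKY genes (7.79%) hosted peaks found alone.

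NAC factors had 7 hosts of 120 (5.83%), among them ATAF1 with scores of 135 and 128, NAC102 with 125 and 117, and NAC019 with 135 and 112, regulators of senescence and drought responses. Here the shared regions and the peaks found alone differed in number, since only 1 NAC gene (0.833%) hosted a replicate 1 peak found alone. GRAS factors had 3 of 33 (9.09%), namely SCL13, AT5G67411 and AT3G50650, and 6 more under peaks found alone. C2H2 zinc fingers had 2 of 97, the stress regulators RHL41 (127 and 106) and STZ (93.7 and 142). MYB factors had 3 of 199 (1.51%), namely MYBR1 (132 and 124), MYB51 (71.1 and 82.4) and MYB73 (68.2 and 116). Homeobox genes (2 of 212, HAT1 and HB6) and bZIP genes (1 of 73, BZIP61) were near the share of all genes. So were TCP, SPL, LBD and YABBY genes (1 of 106, TCP15). The word match gave bHLH genes 2 of 153 (1.31%), AT2G22760 and HEC1. NIG1, a bHLH gene matched only to calcium-binding proteins, is missing from these 2 and from the 44. MYC2, of equal overlap with the host AT1G32630, is missing too, so the bHLH share is not read against that of all genes. MADS-box genes, many of which are textbook Polycomb targets, had none of 125 as a host, although the region of BCB also lay over 783 bp of PI, a floral MADS-box gene. A count of 0 of 125 allows a share of up to 2.40%, above that of all genes, so no shortage can be read from it.

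Outside transcription factors, several enzyme and signalling classes stood above 1.11%. Cytochrome P450 enzymes had 9 of 252 (3.57%), led by CYP94B3 (482 and 267), CYP78A7 and CYP94C1 (114 and 111). Calcium-binding proteins had 6 of 156 (3.85%), led by AT3G10300, TCH2 and NIG1 (213 and 117). Protein phosphatases 2C had 3 of 71 (4.23%), namely AT4G33920, PP2CA and HAI1. Cell wall enzymes had 12 of 476 (2.52%), among them TCH4, a xyloglucan endotransglucosylase, with scores of 101 and 98.3. This class was matched by words of the gene product, which also brought in genes of other kinds, among them LRX2 and the receptor-like kinases PERK1 and PERK3, which count in both classes. Membrane transporters had 16 of 913 (1.75%), led by AT1G61890, DIC2 and AT1G22570. Product names were listed only where at least 3 hosts had them, so the shares of these names were picked by their hosts and carry no weight. Of the 55 genes annotated as MATE efflux transporters, 5 were hosts. Of the 5 whose product name is dehydrin family protein, protective proteins of drying cells, 3 were hosts. COR47, a dehydrin host named below, has another product name and is not in this count. The 3 dehydrins counted were ERD14 (111 and 126), ERD10 (100 and 70.6) and RAB18 (51.2 and 56.1).

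Several other classes were below the share of all genes, and others were above it by few hosts. Receptor-like kinases had 4 of 417 (0.959%), with PERK1 (162 and 115) and SOBIR1 (65.7 and 60.1) among them, and other kinases 7 of 1004 (0.697%). E3 ligases of the RING, U-box and F-box kinds had 11 of 1188 matched genes (0.926%). They were led by RDUF1 (141 and 153), PUB23 (195 and 110), a negative regulator of immunity, and RDUF2 (105 and 158). The words missed the hosts CMPG1, CMPG2, CNI1 and BRG2, which are also ligases of these kinds. The place of this class against all genes is thus not settled by the count. Pentatricopeptide repeat proteins had 1 of 266 (AT1G11470), although 64.7% of them lack introns, and ribosomal proteins had 1 of 351 (AT5G51610). Photosynthesis genes were above the share of all genes with 2 of 100, PSAD-1 (76.5 and 64.3) and LHCA2 (94.7 and 61.8). So were Dof, GATA and B-box zinc fingers (2 of 83, 2.41%) and auxin-responsive proteins (2 of 136, 1.47%). B3 and auxin response factors (2 of 141, 1.42%) and lipid, cutin and wax enzymes (5 of 407, 1.23%) were slightly above it. Histone and transposon-related genes had none of 55 and none of 67, which allows shares of up to 5.45% and 4.48%.

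**Figure D5:**
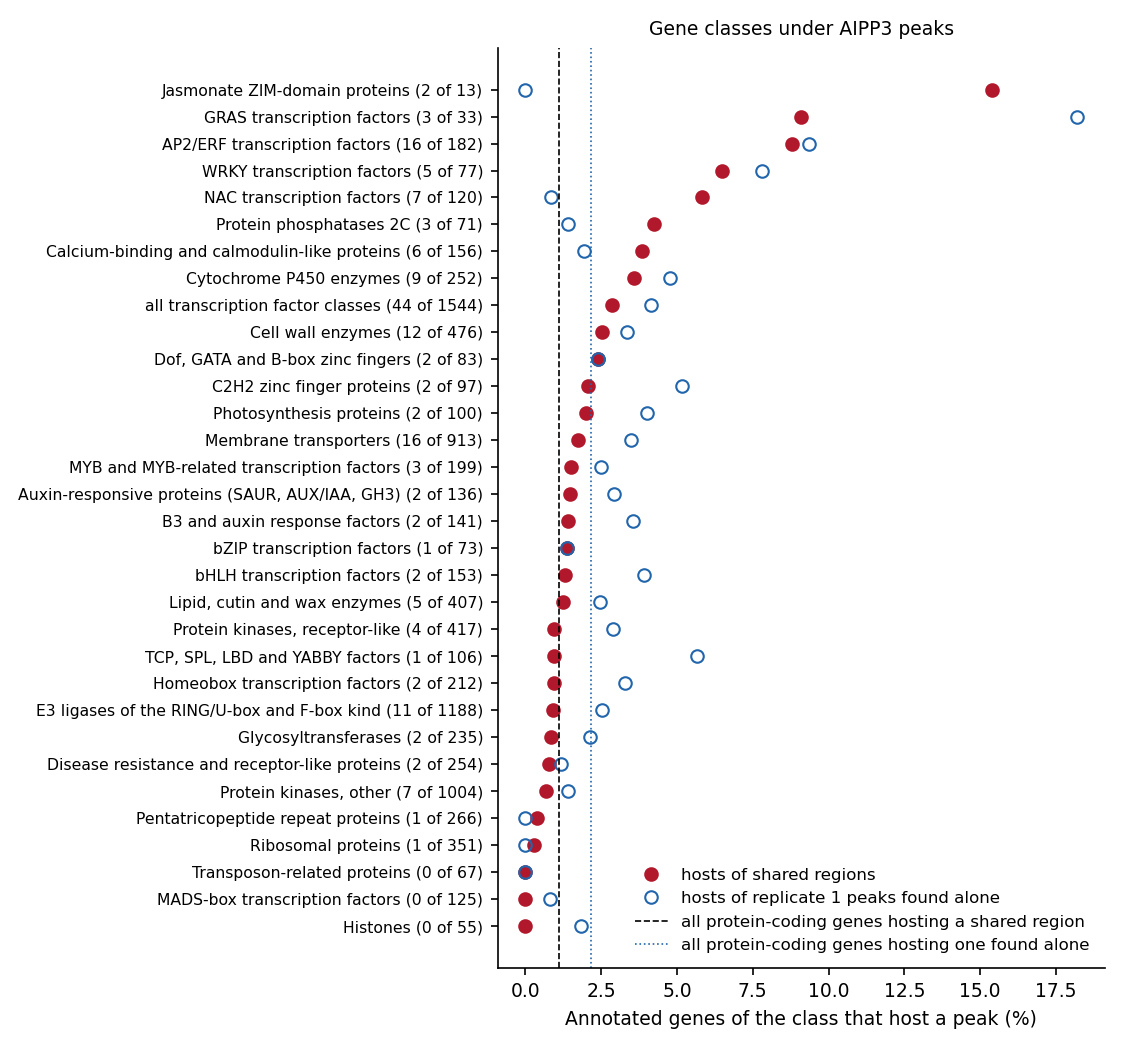
Percent of the annotated genes of each class (horizontal axis) that host a shared region (filled circles) or a replicate 1 peak found alone and no shared region (open circles), with the numbers of shared hosts and annotated genes beside each class name. The dashed line marks the 1.11% of all protein-coding genes that host a shared region and the dotted line the 2.16% that host a peak found alone, and AP2/ERF, WRKY, NAC, JAZ and GRAS classes lie to the right of the dashed line with 5.83 to 15.4%.

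Genes of a common pathway recurred among the hosts. The lists for this were drawn up after the hosts were known, so their counts carry no weight as evidence of a direction, and the genes named from them were chosen after their values were seen. Jasmonates are oxylipin hormones of wounding and defence. Of 36 listed genes of their synthesis, turnover and signalling, 10 were hosts, against 1.11% of all genes. A further 1 of the 36 hosted a peak found alone, a count too small to be told from the 2.16% of all genes. The synthesis genes were LOX4 (173 and 130), LOX3 (137 and 69.1), AOS (126 and 76.0), OPR3 (229 and 110) and OPCL1 (64.0 and 75.4). The turnover genes were CYP94B3, CYP94C1 and ILL6 (307 and 129), which act on the jasmonoyl-isoleucine hormone. The repressors were JAZ1 and JAZ5 (164 and 87.5), 2 of 13 JAZ genes annotated. Synthesis, inactivation and repression of the pathway were thus all represented.

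Indole glucosinolates are sulphur-containing defence compounds made from tryptophan. Of 23 listed genes 6 were hosts, against 1.11% of all genes, and 5 more hosted peaks found alone, against 2.16%. This list and the next were also drawn up after the hosts were known. The hosts were CYP83B1 (222 and 76.5) and CYP79B2 (83.4 and 61.3) of the core pathway, AKN2 (57.3 and 87.7) of sulphate activation, the regulator MYB51, the transporter PEN3 and ESP (199 and 72.2), which steers glucosinolate breakdown. Of 32 listed genes of abscisic acid, the drought hormone, 5 were hosts and 3 more hosted peaks found alone, beside the same shares of all genes. The 5 hosts were NCED5 (299 and 103) and NCED2 (212 and 58.7) of synthesis, the receptor PYL6 (53.1 and 59.5), and the phosphatases PP2CA (62.5 and 55.4) and HAI1 (149 and 52.8). In replicate 2 the scores of NCED2, PYL6, PP2CA and HAI1 lay close to the lowest score of the list, 50.1.

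The regions were spread along all 5 chromosomes. Chromosomes 1 to 5 held 94, 45, 53, 52 and 63 regions, which is 3.09, 2.28, 2.26, 2.80 and 2.34 per Mb, and between 0.952% (chromosome 3) and 1.30% (chromosome 1) of their protein-coding genes were hosts. No bin of 1 Mb held more than 10. The distance from a region to the nearest other region, between midpoints, had a median of 103 kb. Within 20 kb of another region lay 46 regions (15.0%, 95% Wilson interval 11.4 to 19.4), and of the 613 peaks found alone 20.7% lay within 20 kb of another peak found alone, a set with more members on the same chromosomes.

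These 46 regions formed 22 groups, 20 pairs and 2 groups of 3. One group of 3 covered nearby genes of a single kind, the leucine-rich repeat genes AT1G33590 (235 and 161), AT1G33600 (144 and 114) and AT1G33610 (146 and 74.99) of chromosome 1, with the outer midpoints 11128 bp apart. All 3 lie on the plus strand and lack introns. The other group of 3 joined the cold-induced dehydrin genes COR47 (95.1 and 91.4) and ERD10 with OPCL1 on the same chromosome, with the outer midpoints 20140 bp apart. AT1G33590 and its neighbours were the only group of the 22 in which all hosts had the same product name. In 2 groups, both of them pairs, the hosts were adjacent genes. One pair was PDX1.1, of vitamin B6 synthesis, with AT2G38240, and the other AKN2 with CYP79B2. The region at PDX1.1 also held the largest share of sequence found elsewhere in the nuclear genome, 11.9% of its 31-base words. Over all regions the median was 0, so reads that map to near-identical copies concern few of them.

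The regions were richer in G and C than what lay around them. Their GC share had a median of 40.6% against 32.2% in the flanks of 1 kb, and in 253 of 307 (82.4%) it was above both flanks. The peaks found alone were alike, with 40.1% against 32.9% and 78.3% of them above both flanks. The regions lay mostly over genes, and the bodies of all protein-coding genes had a median of 38.85%, those of intronless genes 40.9%. The coding sequence of hosts had a median of 47.4% GC against 44.1% in all genes. Hexamers and octamers were searched on both strands and compared with all genome windows of 1885 bp and with windows of that length centred on protein-coding genes. For this comparison each region was replaced by the 1885 bp around its midpoint. The GA repeat GAGAGA was in 90.6% of regions, 84.7% of gene-centred windows and 79.7% of genome windows. The telo-box AAACCCTA was in 22.5%, 21.2% and 20.6%. For these 2 elements the regions were thus close to ordinary genes of the same window length.

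The G-box CACGTG behaved differently. It was in 148 of 307 windows at regions (48.2%), against 17.6% of gene-centred and 18.3% of genome windows. Among intronless genes it was in 73 of 130 windows at hosts (56.2%) and in 25.2% of windows centred on all intronless genes. In the 500 bp before the TSS, which are mostly outside the regions, it was found at 56 of 304 hosts (18.4%), at 14.1% of hosts of peaks found alone and at 9.35% of all genes. Where the upstream gap was over 2 kb the shares were 16.3% of hosts and 8.86% of all genes. The GCC-box GCCGCC, a target of ERF factors, was in 53.7% of regions and 22.0% of gene-centred windows, but in 4.61% and 4.12% of promoters. The rapid stress response element CGCGTT was in 33.6% and 16.5%, and in 8.22% and 4.61% of promoters, and the DRE ACCGAC in 42.0% and 26.0%, and in 8.55% and 8.35% of promoters. The W-box TTGACC of WRKY factors was in 58.0% and 54.4%. The peaks found alone came close to the shared regions when whole peaks were searched, with the G-box in 44.9% against 49.5%, the GCC-box in 47.3% against 56.7%, the DRE in 38.3% against 44.6% and CGCGTT in 30.8% against 37.5%. GC-rich motifs are met more often in GC-rich sequence, and the part of base composition in these shares was not tested. In promoters the GA repeat was found at 76 of 304 hosts and at 35.2% of all genes, and the telo-box at 2.63% and 7.51%. Among genes with an upstream gap over 2 kb, the GA repeat was found at 25.8% of hosts and 29.1% of all genes. The telo-box was found at 2.81% and 5.77% of them. The GA repeat shares thus lay closer together when genes with wide upstream gaps were compared. A match to these letters is a description of sequence and not a binding site.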

How the data were processed

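Seedlings of AIPP3-4Myc (2 libraries) and Col-0 (1 library) were profiled by anti-Myc ChIP-seq. As the methods of the study state, the authors aligned reads to TAIR10 with Bowtie2 2.2.8 and called peaks for each library with MACS 1.4 at default settings. The deposited score is the authors' MACS score, with lowest values of 50.0 in replicate 1 and 50.1 in replicate 2. The control given to MACS and the read depth are not given in the sources used here, so no precision of a score can be stated.

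Peaks were intersected (1 bp minimum) with TAIR10.1 gene models, whose nuclear coordinates equal those of TAIR10, using python 3.11.15, pandas 2.3.3, numpy 2.4.6 and scipy 1.17.1. The procedure was tested on simulated intervals. Introns and lengths refer to the annotated model with the gene's TSS and TTS. Gene classes were matched by words in product names and symbols, which can miss members named otherwise.

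The members and lists were chosen with earlier results of these data known, and pathway lists after the hosts were seen. Regions were ordered by the smaller replicate score. Named are hosts of ranks 11 to 30, up to 3 leading hosts per class, the 3 widest and narrowest regions, regions at the edge of the 1 bp rule, groups of 3 or more regions, the fully covered leaders and regions without a gene; other names were chosen after their values were seen. Organelle peaks were left out. Alternatives covered overlap, score, edges, host assignment, distance and single replicates.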

Additional observations from a re-analysis of the deposited data

How the results depend on the processing

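Of 105 alternatives over 12 results, 78 stayed within the 95% interval of the reported value (for the number of regions, within 1.5 times), among them all those for intron content, host length and divergent neighbours. A score of at least 100 in both replicates left 84 regions with a median width of 2283 bp, a TTS share of 71.4% (53.8% reported), 7.14% within 20 kb of another, 19.1% transcription factor hosts, 95.2% with a GA repeat and a median upstream gap of 2973 bp. With every gene body touched, that gap was 1997 bp. With replicate 2 edges the median width was 1623 bp, the TSS share 50.8% (70.0% reported over any protein-coding gene), the TTS share 43.0% and the G-box share over whole regions 41.0% (49.5% reported). With the interval common to both replicates they were 1571 bp, 46.6%, 39.4% and 40.4%. Using 1 replicate at a time gave 421 to 920 regions, median widths of 1602 to 1724 bp, TSS shares of 48.2 to 71.1%, TTS shares of 42.3 to 48.2%, 19.5 to 33.7% within 20 kb of another, and a G-box in 39.0 to 46.4%. A distance of 10 kb gave 6.19% and one of 50 kb 30.9%. The G-box and upstream gap results, leaving out the AIPP3 locus and requiring hosts covered by at least 30% were added after the data were seen. No paired analysis was possible because Col-0 has a single library and no test was made. Where edges move a share, unknown depth limits the reading, since the cause was not tested.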
